A study of Mus musculus with 2 samples.

Results

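Matrix metalloproteases (MMPs), their tissue inhibitors (TIMPs) and the sheddase Adam17 were described across the lung immune cells of tamoxifen-injected and oil-injected mice. The 10 genes were taken by symbol (Mmp8, Mmp9, Mmp12, Mmp13, Mmp14, Mmp19, Timp1, Timp2, Timp3 and Adam17) out of 31053 genes in both count matrices, and all 10 were found in both. Each gene was counted as unique molecular identifiers (UMIs, 1 per captured RNA molecule) in barcodes with at least 300 genes and under 10% mitochondrial UMIs. Cells were grouped into 9 gates, each set by UMIs of 2 or 3 genes: alveolar macrophages by Krt79 and Plet1, C1q macrophages by C1qa and C1qb, a macrophage gate by Ly6i, Chil1 and Gpnmb, type 1 and type 2 conventional dendritic cells (cDC1, cDC2) by Xcr1 and Clec9a and by Mgl2 and Cd209a, Ccr7 dendritic cells (Ccr7 DC) by Ccr7 and Fscn1, neutrophils by Csf3r and Retnlg, endothelial cells by Cdh5 and Cldn5, and fibroblasts by Dcn and Col1a2. No member gene was used by a gate, and a cell could pass several gates.

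The first group was injected with tamoxifen and the second with oil, and both carried Gli1creERT/Hhipflo/flox (floxed Hhip, spelled as in the labels), so the groups share the alleles and differ in the injection. All mice were adult, and the labels give neither how many animals each library pools nor their exact age or sex. Gli1creERT is a Cre made active by tamoxifen and driven by Gli1, a gene known from Hedgehog-responsive mesenchyme, and Hhip binds and restrains Hedgehog ligands. Live lung cells positive for CD45 and negative for a CD45 antibody given intravenously were captured with 10x 3' version 3 chemistry. There was 1 library per group, so no test was possible, and every interval given covers counting error only.

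The tamoxifen library held 10138 usable cells of 12980 barcodes, with 79853762 UMIs and a median of 6431 per cell, and the oil library held 6794 of 10342, with 53146681 UMIs and a median of 6360.5. The 2 libraries shared 18 barcode sequences among usable cells. Hhip itself had 23 UMIs in 85 tamoxifen and 24 UMIs in 99 oil cells of the fibroblast gate. Whether the counted 3' tags lie within the deleted part of Hhip is not stated, so these counts check nothing about the deletion. Female and male cells were mixed in both libraries, with 6156 female and 1679 male tamoxifen cells and 3714 female and 1413 male oil cells by X- and Y-linked transcripts. The remaining 2303 tamoxifen and 1667 oil cells were assigned to neither sex. Gates overlapped, with 1979 tamoxifen and 1602 oil cells in several of the 9 gates and 4989 and 3524 in none.

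The gates were checked against marker lists that did not include the gate genes. All 8 markers were at least 2-fold higher inside the gate than outside it in both libraries for the alveolar macrophage, C1q macrophage, cDC1, Ccr7 DC, neutrophil, endothelial and fibroblast gates. For the cDC2 gate 6 of 8 were, and 879 of its 1659 tamoxifen and 1059 of its 2035 oil cells also passed the C1q macrophage gate. The cDC1 gate was not separate either. Of its 701 tamoxifen and 539 oil cells, 334 and 277 also passed the cDC2 gate, and 208 and 106 the alveolar macrophage gate. In the gate set by Ly6i, Chil1 and Gpnmb only 4 of 8 were, and the alveolar macrophage markers summed to 7936 CPM (UMIs scaled to a gate total of 1000000) in tamoxifen and 19031 CPM in oil cells, against 1773 and 1518 CPM for its own list. That gate is named here by its genes. A Gpnmb UMI was present in 396 of its 524 tamoxifen and 131 of its 137 oil cells, whereas a Ly6i UMI was present in 147 tamoxifen and 7 oil cells. The alveolar macrophage gate differed in make-up between the libraries. At least 3 of its 8 markers were found in 89.5% of its tamoxifen and 67.0% of its oil cells. Of its cells, 11.7% in tamoxifen and 30.3% in oil also passed the cDC2 gate. No other gate was passed by 1774 of its 2507 tamoxifen and 197 of its 476 oil cells.

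MMPs are zinc endopeptidases, made as inactive proenzymes, that cleave collagens, elastin and other matrix proteins as well as chemokines and surface receptors. TIMPs bind their active sites, and Timp3 also inhibits Adam17, the membrane enzyme that releases tumour necrosis factor and many receptors from the cell surface. In the lung, neutrophils store Mmp8 and Mmp9 in granules, and Mmp12, the macrophage elastase, is known from mouse models of emphysema.

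The members Mmp8, Mmp12 and Mmp13 lie in the MMP cluster of chromosome 9, on the plus strand of GRCm38, where Mmp12 starts 71.9 kb after Mmp13, and Mmp8 starts 214 kb after Mmp12. Mmp13 spans chr9:7272514-7283331, Mmp12 spans chr9:7344381-7369499 and Mmp8 spans chr9:7558456-7568485 in the GENCODE annotation. Their promoters are shown because these neighbours had different cell distributions in the data. Mmp12 and Mmp13 were found mainly in C1q gate cells that also passed the cDC2 gate, and Mmp8 in neutrophil-like and alveolar cells. The windows, from RefSeq on GRCm38.p6 and on the plus strand, run from 250 bases before an annotated start through the first 50 bases after it, at chr9:7272264-7272563 for Mmp13, chr9:7347124-7347423 for Mmp12 (the second of 2 annotated starts) and chr9:7558179-7558478 for Mmp8. Capitals mark matches on either strand to TGANTCA, the letters bound by AP-1 (Fos and Jun factors), and to TATAAA or its reverse complement.
Mmp13: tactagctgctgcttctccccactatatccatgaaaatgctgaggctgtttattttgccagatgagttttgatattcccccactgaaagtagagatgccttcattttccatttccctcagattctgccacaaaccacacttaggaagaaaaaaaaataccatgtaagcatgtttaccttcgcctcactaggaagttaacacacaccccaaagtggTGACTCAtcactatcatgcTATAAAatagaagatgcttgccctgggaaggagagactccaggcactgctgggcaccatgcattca
Mmp12: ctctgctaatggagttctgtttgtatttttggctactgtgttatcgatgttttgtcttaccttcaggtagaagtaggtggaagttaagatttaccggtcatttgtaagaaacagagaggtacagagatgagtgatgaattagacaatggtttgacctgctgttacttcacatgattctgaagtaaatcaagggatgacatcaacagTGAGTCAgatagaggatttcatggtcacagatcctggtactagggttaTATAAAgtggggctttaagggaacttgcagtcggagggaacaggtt
Mmp8: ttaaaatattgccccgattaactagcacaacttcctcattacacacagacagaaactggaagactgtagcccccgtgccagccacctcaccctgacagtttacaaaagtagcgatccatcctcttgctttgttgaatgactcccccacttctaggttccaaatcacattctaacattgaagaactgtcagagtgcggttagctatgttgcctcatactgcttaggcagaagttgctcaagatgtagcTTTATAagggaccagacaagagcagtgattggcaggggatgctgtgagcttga
TGANTCA was found at -35 in Mmp13 and at -44 in Mmp12, counted from the annotated start, and in 7.81% of all 32851 windows of this length. TATAAA or its reverse complement was found in all 3 windows shown and in 13.6% of all windows, and no matches overlapped. It began at -16 in Mmp13, at -3 in Mmp8 and at 4 in Mmp12. The Mmp8 match thus spans the annotated start and the Mmp12 match lies after it. The first Mmp12 start, at chr9:7344147-7344446, held no match to either motif, and neither did the windows of Mmp14, Timp1, Timp2, Timp3 and Adam17. A match describes the letters only.

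Over the 9 gates, 77 of the 90 gene and gate pairs had at least 20 UMIs in the 2 libraries together. A pair was called when the CPM ratio was at least 2-fold and the 95% counting interval of the ratio excluded no difference. By this rule 17 pairs were called higher and 8 lower in tamoxifen cells. Mmp8 was called higher in all 6 gates where it had enough UMIs, Mmp19 in 4 of 9 and Mmp14 in 3 of 9. Mmp13 was called lower in 3 of 5 gates and Timp1 in 2 of 6, and Timp3 and Adam17 were called in none.

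The share of called members is read against all genes of the same gate. In the alveolar macrophage gate 1 member was called higher and 1 lower, beside 2.52% and 5.29% of 12459 genes. The C1q macrophage gate had 3 higher and 1 lower, beside 2.87% and 1.61% of 12077 genes. For the Ly6i Chil1 Gpnmb gate the counts were 3 higher and 2 lower of 9, beside 4.56% and 2.46% of 10668 genes. The cDC1 gate had 0 higher and 2 lower of 9, beside 3.94% and 1.08% of 11214 genes, and the cDC2 gate 2 higher and 0 lower of 10, beside 2.24% and 1.21% of 12976 genes. In the Ccr7 DC gate 5 of 7 were called higher and 0 lower, beside 4.88% and 1.60% of 8880 genes. Neutrophil markers summed to 823 and 49.96 CPM in tamoxifen and oil cells of that gate, alveolar macrophage markers to 528 and 139 CPM and C1q macrophage markers to 912 and 455 CPM, with 0 of 8 markers at 0 in each list and library, and their part was not tested. In cells of exactly 1 gate, Ccr7 DCs kept the call for Mmp14 alone of these 5 members: Mmp12 had 9 and 4 UMIs and Mmp19 had 14 and 5 UMIs in tamoxifen and oil cells, Timp2 had 11 and 18 UMIs, a log2 ratio of -0.81, and Mmp8 had 0 UMIs in both. The neutrophil gate had 1 higher and 2 lower of 8, beside 5.31% and 3.56% of 8844 genes. Endothelial cells had 2 higher and 0 lower of 7, beside 2.62% and 2.29% of 9246 genes, and the fibroblast gate had 0 in either direction of 7, beside 2.76% and 2.47% of 8771 genes.

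Set against all other cells of its own library, members were at 2-fold or more in both libraries in 7 of the 9 gates, some of them in several gates, and 0 members were so in the cDC1 and Ccr7 DC gates. The Ly6i Chil1 Gpnmb gate exceeded other cells in Mmp8, Mmp14 and Mmp19, beside 3.14% of 13804 genes, and the cDC2 gate in Mmp12, Mmp13 and Timp1, beside 4.17%. The C1q, alveolar, neutrophil, endothelial and fibroblast gates are given with their genes.

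Many calls depended on a setting. Of the 25 called pairs, 3 kept their call under every alternative that gave a value, namely Mmp8 in the cDC2 and neutrophil gates and Mmp12 in the neutrophil gate. Another 6 lost it under 1 alternative, which was the restriction to male cells for Mmp8 in alveolar macrophages, Mmp14 in the Ly6i Chil1 Gpnmb gate and Mmp19 in the C1q and cDC2 gates, leaving out S100-rich cells for Mmp8 in the Ly6i Chil1 Gpnmb gate, and leaving out cells of the T or B cell gate for Mmp13 in the cDC1 gate. The other 16 lost it under 2 or more, and 6 of the 25 changed direction in at least 1. For Mmp12 in the neutrophil gate, cells of exactly 1 gate gave no value, with 1 UMI in tamoxifen and 1 UMI in oil cells. The whole gate had 205 UMIs in tamoxifen and 232 UMIs in oil cells, so that alternative could not check this call. Mmp13 in the cDC1 gate had a value in only 8 of the 14 alternatives. Cells of exactly 1 gate could not check it either, with 1 UMI in tamoxifen and 0 UMIs in oil cells.

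**Figure D1:**
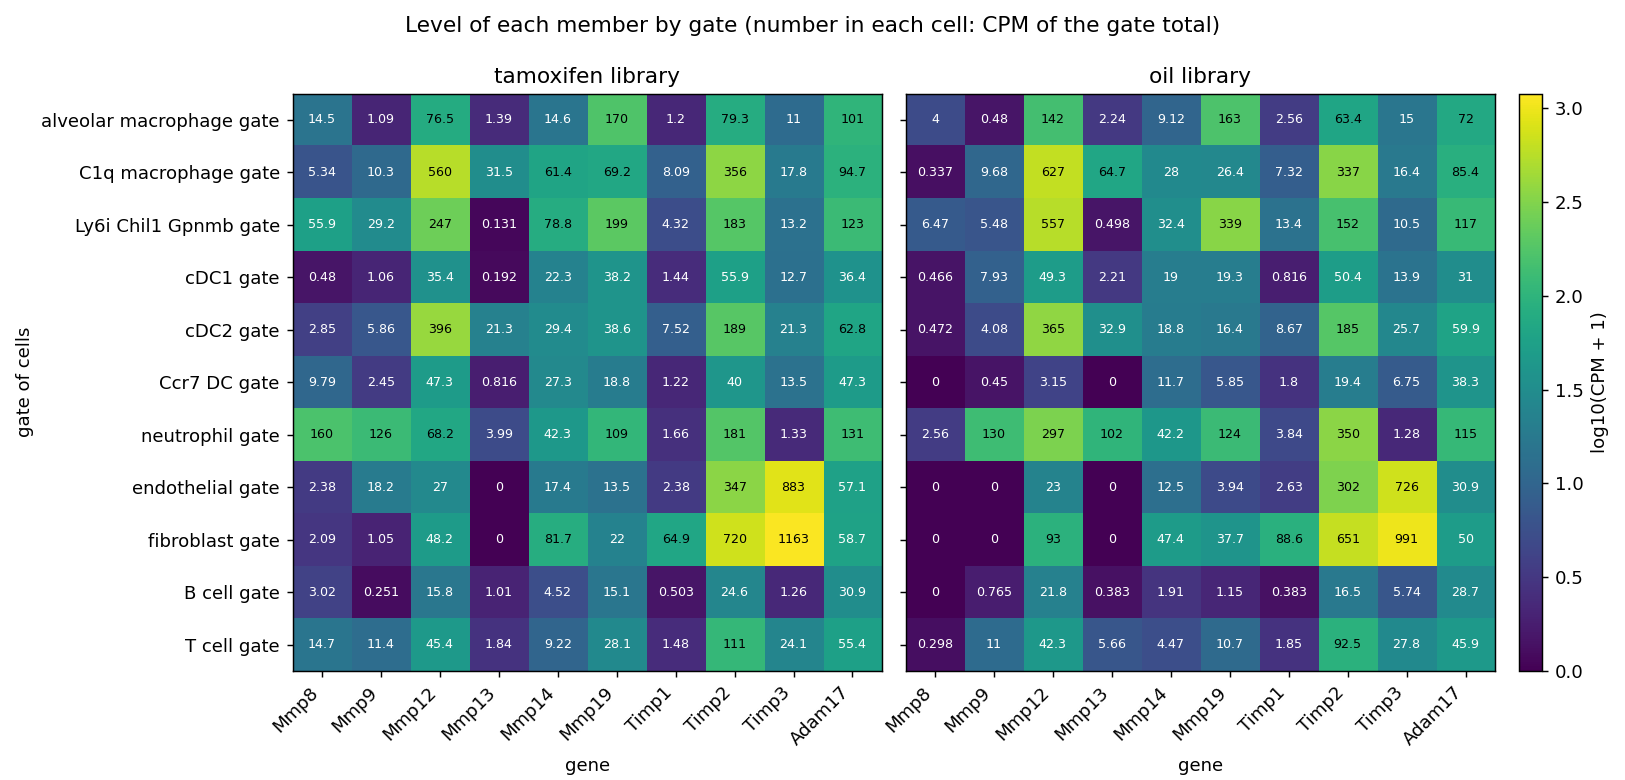
Level of the 10 genes in 11 gates, in CPM of the gate total (colour: log10(CPM + 1)), with the tamoxifen library on the left and the oil library on the right. Mmp12 is brightest in the C1q macrophage gate, at 560 CPM in tamoxifen and 627 CPM in oil cells, and Timp3 in the fibroblast and endothelial gates.

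**Figure D2:**
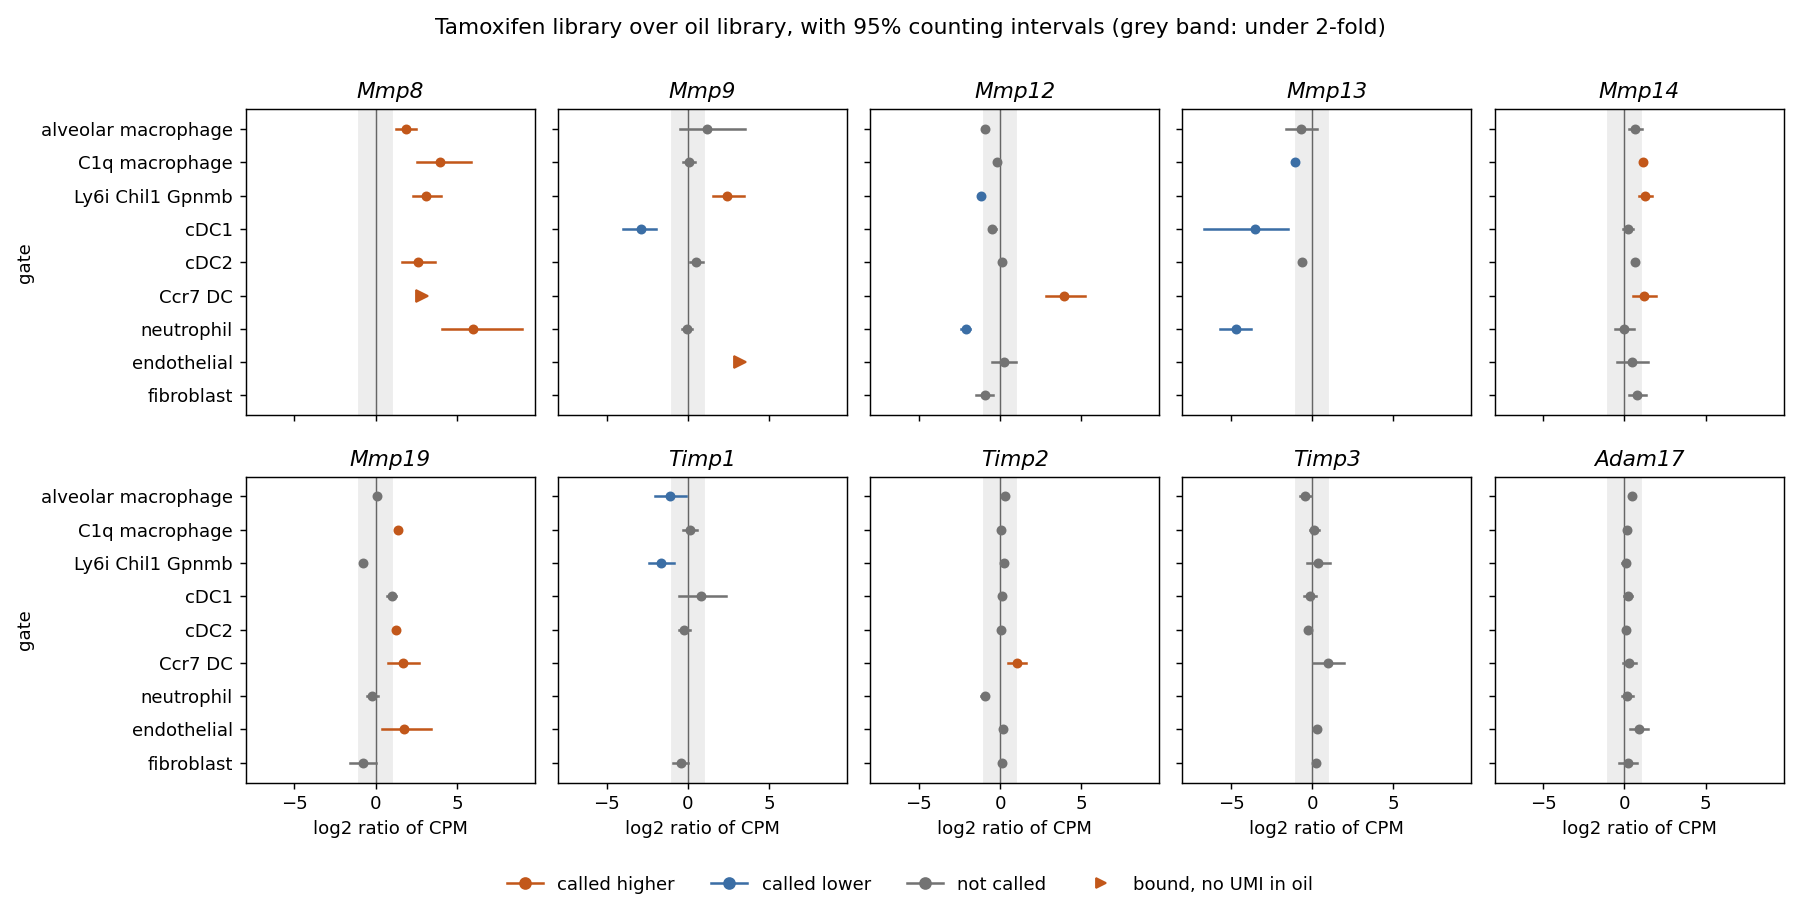
Log2 ratio of CPM, tamoxifen over oil, for each gene (panels) in the 9 gates (rows), with 95% counting intervals as lines. Gene and gate pairs under 20 UMIs are left out, and triangles are lower bounds where the oil library had no UMI. Mmp8 lies to the right in all 6 gates shown, while Timp3 and Adam17 lie within or at the grey 2-fold band in every gate shown.

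Mmp8, the neutrophil collagenase, had the largest log2 ratio of the 10 genes over all usable cells. It had 978 UMIs in 358 tamoxifen cells and 43 UMIs in 29 oil cells, or 12.2 and 0.809 CPM, a log2 ratio of 3.92 (95% counting interval 3.48 to 4.40) over all usable cells. Across all usable cells 4.31% of 15373 genes were called higher by the same rule. Most of the tamoxifen UMIs came from 2 kinds of cells, which the plot of Mmp8 by group of cells shows side by side.

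The first kind were cells rich in S100a8 and S100a9, the calprotectin genes that fill the cytoplasm of neutrophils. The limit of 100 UMIs of both genes was set after these values were seen. In such cells Mmp8 had 444 UMIs in 33 of 76 tamoxifen cells, and 0 UMIs in 8 oil cells. Those 76 cells held 45.4% of the Mmp8 UMIs of the tamoxifen library, at 761 CPM. Within them, 20 cells with at least 10 UMIs of Ngp, a gene of immature granulocytes, had 1158 CPM of Mmp8 and the other 56 had 359 CPM. The oil library held 1 such Ngp-positive cell, with 0 Mmp8 UMIs, so a difference per cell could not be judged.

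The neutrophil gate differed in make-up between the libraries. It took in 315 tamoxifen cells, 68 of them S100-rich, and 99 oil cells, 6 of them S100-rich. Its 8 neutrophil markers summed to 42298 CPM in tamoxifen and 5598 CPM in oil cells, with no marker at 0, while C1q macrophage markers summed to 3060 and 6506 CPM. Mmp8 had 480 UMIs in 49 tamoxifen cells of this gate and 2 UMIs in 1 oil cell, and the log2 ratio was 5.97 (4.10 to 9.02). Without the S100-rich cells it was 2.45 (0.49 to 5.55), from 36 and 2 UMIs. The part of cell composition in this ratio was not tested.

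The second kind were alveolar macrophages, the lipid-clearing macrophages of the airspace, where Mmp8 was low and widespread. It had 398 UMIs in 264 of 2507 tamoxifen cells (10.5%, 95% Clopper-Pearson interval 9.36 to 11.8) and 25 UMIs in 19 of 476 oil cells (3.99%). In the tamoxifen cells 192 had a single UMI and only 1 had 10 or more. The level was 14.5 CPM in tamoxifen and 4.0 CPM in oil cells, a log2 ratio of 1.86 (1.28 to 2.50), or 1.74 after median-of-ratios scaling, since the median gene of this gate was shifted by 0.12. By comparison, B cells, which should lack Mmp8, had a UMI in 1.85% of 433 tamoxifen cells (median 6878 UMIs per cell) and in 0 of 236 oil cells (median 7744), against medians of 10341 and 12636 in the alveolar gate. After every cell was thinned to 1500 UMIs, Mmp8 was found in 2.16% of tamoxifen and 0.641% of oil alveolar cells.

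Calprotectin transcripts in the alveolar gate were measured beside Mmp8. In cells that passed the alveolar gate alone, Mmp8 had 300 UMIs in 203 of 1774 tamoxifen cells and 13 UMIs in 11 of 197 oil cells, at 17.9 and 7.32 CPM, with a log2 ratio of 1.29 (0.49 to 2.21). S100a8 and S100a9 summed to 54.8 CPM in these tamoxifen cells and 32.6 CPM in these oil cells, and their part in the Mmp8 difference was not tested.

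**Figure D3:**
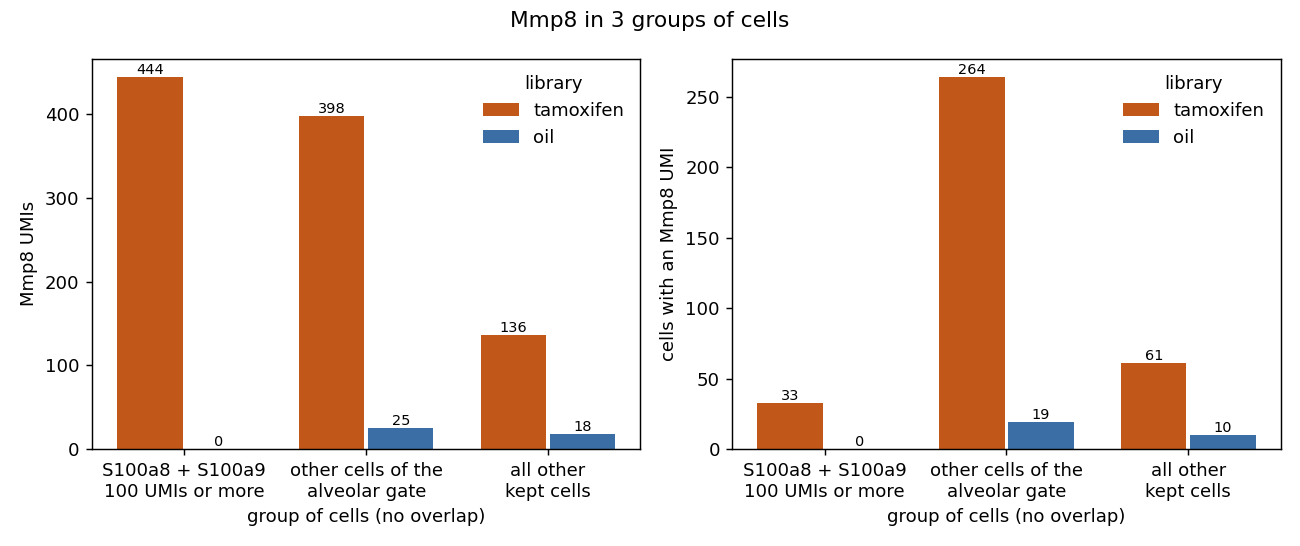
Mmp8 UMIs (left) and cells with an Mmp8 UMI (right) in 3 groups of cells without overlap, tamoxifen and oil side by side. The 76 S100-rich tamoxifen cells held 444 UMIs and the 8 oil cells 0, while the other alveolar gate cells held 398 and 25 UMIs.

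Mmp8 calls in other gates rested on few cells. In the Ly6i Chil1 Gpnmb gate it had 427 UMIs in 66 of 524 tamoxifen cells and 13 UMIs in 7 of 137 oil cells, a log2 ratio of 3.11 (2.32 to 4.03), but 340 of the tamoxifen UMIs lay in 29 S100-rich cells. Without S100-rich cells the ratio in this gate was 0.87 (0.02 to 1.83), under 2-fold. The C1q macrophage gate had 72 UMIs in 36 of 1262 tamoxifen cells and 4 UMIs in 3 of 1221 oil cells, with a log2 ratio of 3.99 (2.57 to 5.90). This call was lost in cells of exactly 1 gate, which had 10 UMIs in tamoxifen and 2 UMIs in oil cells (4.86 and 1.86 CPM), and after thinning, at a log2 ratio of 0.69. In the cDC2 gate Mmp8 had 55 UMIs in 30 cells and 11 UMIs in 7 cells, with a log2 ratio of 2.60 (1.65 to 3.68). The Ccr7 DC gate had 24 UMIs in 6 tamoxifen cells and 0 in 169 oil cells, at least 7.25-fold higher against a floor of 3 UMIs over the oil gate, and 16 of the 24 lay in 1 cell with 1812 S100 UMIs.

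Mmp9, a gelatinase stored in neutrophil granules and also made by some macrophages, was at 8.67 CPM in tamoxifen and 8.26 CPM in oil cells (692 and 439 UMIs), a log2 ratio of 0.07 (-0.11 to 0.25) over all usable cells. With Mmp14, it was at least 2-fold higher in the neutrophil gate than in other cells of both libraries, as were 2.25% of 13804 genes. In cells of the neutrophil gate alone, however, Mmp14 had only 5 UMIs in 107 tamoxifen cells and 5 UMIs in 48 oil cells, at 11.5 and 31.4 CPM. In the whole gate Mmp9 had 379 UMIs in 88 of 315 tamoxifen cells and 102 UMIs in 27 of 99 oil cells, at 126 and 130 CPM, and the log2 ratio was -0.05 (-0.37 to 0.28). A UMI was found in 27.9% of the tamoxifen and 27.3% of the oil cells, against 0.231% and 0.847% in the B cell gate. S100-rich cells held 292 UMIs in 55 of 76 tamoxifen cells and 24 UMIs in 5 of 8 oil cells, a log2 ratio of -0.31 (-0.91 to 0.35). In the S100-poor cells of the neutrophil gate the ratio was -1.51 (-1.95 to -1.07), with 96 UMIs in 247 tamoxifen and 83 UMIs in 93 oil cells. Female cells of the gate went the other way, with 146 UMIs in tamoxifen and 9 UMIs in oil cells, at 66.8 and 19.3 CPM and a log2 ratio of 1.79 (0.83 to 2.95), and male cells had 16 UMIs in tamoxifen and 0 in oil cells. Only 189 female and 21 male tamoxifen cells and 42 female and 11 male oil cells of the gate had a sex assigned. Most Mmp9 UMIs of the gate lay in cells of neither sex in both libraries. The ratio of the gate therefore depended on which of its cells were counted.

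Among C1q macrophages Mmp9 was held by a small subset in both libraries. Cells of this gate with a UMI of Folr2 or Cd163, which mark perivascular-type macrophages, were set apart after the values were seen. They numbered 146 tamoxifen and 157 oil cells and carried 115 of the 139 tamoxifen and 91 of the 115 oil Mmp9 UMIs of the gate. Their level was 71.1 CPM in tamoxifen and 56.9 CPM in oil cells, against 2.02 and 2.33 CPM in the other C1q cells. Within the tamoxifen library the log2 ratio of the subset to the other C1q cells was 5.13 (4.49 to 5.83), and within the oil library it was 4.61 (3.94 to 5.32). Between the libraries the subset differed by a log2 ratio of 0.32 (-0.09 to 0.74).

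The calls for Mmp9 outside these cells came from single barcodes or S100-rich cells. In the cDC1 gate it had 11 UMIs in 8 of 701 tamoxifen cells and 68 UMIs in 9 of 539 oil cells, a log2 ratio of -2.91 (-3.98 to -1.98). Of the 68 oil UMIs 60 lay in 1 barcode with 53992 UMIs in all, called as a doublet, which also held 440 UMIs of Acp5 and 70 of Ctsk, known as osteoclast enzymes. The ratio was 0.41 without doublet calls. In the Ly6i Chil1 Gpnmb gate Mmp9 had 223 UMIs in 34 tamoxifen and 11 UMIs in 3 oil cells, a log2 ratio of 2.41 (1.55 to 3.44), with 207 and 9 of those UMIs in S100-rich cells. The endothelial gate had 23 UMIs in 3 of 257 tamoxifen cells and 0 in 281 oil cells, and 17 of the 23 lay in 1 doublet call that also passed the C1q macrophage gate.

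Mmp12, the macrophage elastase, had its highest level among the gates in the C1q macrophage gate and did not differ by 2-fold there. It had 7546 UMIs in 677 of 1262 tamoxifen cells and 7446 UMIs in 681 of 1221 oil cells, at 560 and 627 CPM, with a log2 ratio of -0.16 (-0.21 to -0.12). A UMI was found in 53.6% of tamoxifen and 55.8% of oil C1q cells, against 3.46% and 2.12% of B cells, with medians of 9666.5 and 8554 UMIs per C1q cell. The distribution was broad, since 260 tamoxifen and 248 oil cells held 10 or more UMIs and 585 and 540 held 0. C1q macrophages exceeded all other cells by a log2 ratio of 3.43 in tamoxifen and 3.44 in oil. With it, Mmp13, Mmp14 and Timp2 were at least 2-fold higher in this gate than in other cells of both libraries, as were 4.25% of 13804 genes.

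C1q cells with a Mgl2 or Cd209a UMI, which also pass the cDC2 gate, held more Mmp12 than the other C1q cells. The level was 708 CPM in tamoxifen and 671 CPM in oil cells with such a UMI, against 258 and 282 CPM without. In cDC2 gate cells outside the C1q gate it was 121 CPM in tamoxifen and 112 CPM in oil cells. The cDC2 gate as a whole had 396 CPM in tamoxifen and 365 CPM in oil cells, with a log2 ratio of 0.12 (0.07 to 0.16). With 7640 and 8499 UMIs it held more Mmp12 UMIs than the C1q gate in both libraries. Cells of several gates held 75.2% of the tamoxifen and 83.7% of the oil Mmp12 UMIs. Cells of the C1q gate alone held 4.81% and 1.54%, and cells of the cDC2 gate alone 6.75% and 10.8%.

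Elsewhere 3 cells held a large share of the Mmp12 UMIs in some gates and libraries, but not in all. In the alveolar macrophage gate it had 2097 UMIs in 253 tamoxifen cells and 890 UMIs in 64 oil cells, at 76.5 and 142 CPM, with a log2 ratio of -0.90 (-1.01 to -0.78), and the 3 top cells held 12.4% of the tamoxifen and 41.9% of the oil UMIs. In cells of the alveolar gate alone it was 36.6 CPM in tamoxifen and 17.5 CPM in oil cells, a log2 ratio of 1.07 (0.55 to 1.64), which is the opposite direction. The Ly6i Chil1 Gpnmb gate had 1884 UMIs in 108 tamoxifen cells and 1119 UMIs in 37 oil cells, a called log2 ratio of -1.18 (-1.28 to -1.07), with 51.4% of the oil UMIs in 3 cells. Neutrophil gate cells had 205 UMIs in 28 tamoxifen and 232 UMIs in 18 oil cells, a called log2 ratio of -2.12 (-2.40 to -1.84), and S100-rich cells held 1 and 0 of those UMIs. The Ccr7 DC gate had 116 UMIs in 15 tamoxifen and 7 UMIs in 7 oil cells, a called log2 ratio of 3.91 (2.82 to 5.25), with 62.9% of the tamoxifen UMIs in 3 cells.

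Mmp13, a collagenase best known from cartilage and bone, was found mainly in C1q macrophages with a Mgl2 or Cd209a UMI. Over all usable cells it had 451 UMIs in 133 tamoxifen cells and 785 UMIs in 181 oil cells, at 5.65 and 14.8 CPM, with a log2 ratio of -1.39 (-1.56 to -1.22), and 3.89% of all 15373 genes were called lower there. The C1q gate had 424 UMIs in 115 tamoxifen cells and 769 UMIs in 167 oil cells, at 31.5 and 64.7 CPM, a called log2 ratio of -1.04 (-1.21 to -0.87). Of these, 94.6% of the tamoxifen and 98.8% of the oil UMIs lay in cells with a Mgl2 or Cd209a UMI.

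Within those cells the difference was smaller than 2-fold. Mmp13 was at 44.3 CPM in 879 tamoxifen cells and 72.3 CPM in 1059 oil cells, with a log2 ratio of -0.70 (-0.88 to -0.53), and at 5.19 and 6.60 CPM in the remaining 383 and 162 C1q cells. The share of C1q cells with a Mgl2 or Cd209a UMI was 69.7% in tamoxifen and 86.7% in oil. In female cells of the C1q gate Mmp13 had a log2 ratio of -0.97 (-1.21 to -0.74), under 2-fold, and in male cells one of -1.29 (-1.66 to -0.92). The small Folr2 or Cd163 subset ran the other way, with 39 UMIs in 8 tamoxifen and 14 UMIs in 6 oil cells, a log2 ratio of 1.46 (0.55 to 2.46). Mmp12 was found together with it, since 14.5% of Mmp12-positive and 2.9% of Mmp12-negative tamoxifen C1q cells held Mmp13, against 19.4% and 6.5% in oil, with Mmp12-positive cells the deeper ones at medians of 10222 and 9408 UMIs against 8942 and 7722.5.

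**Figure D4:**
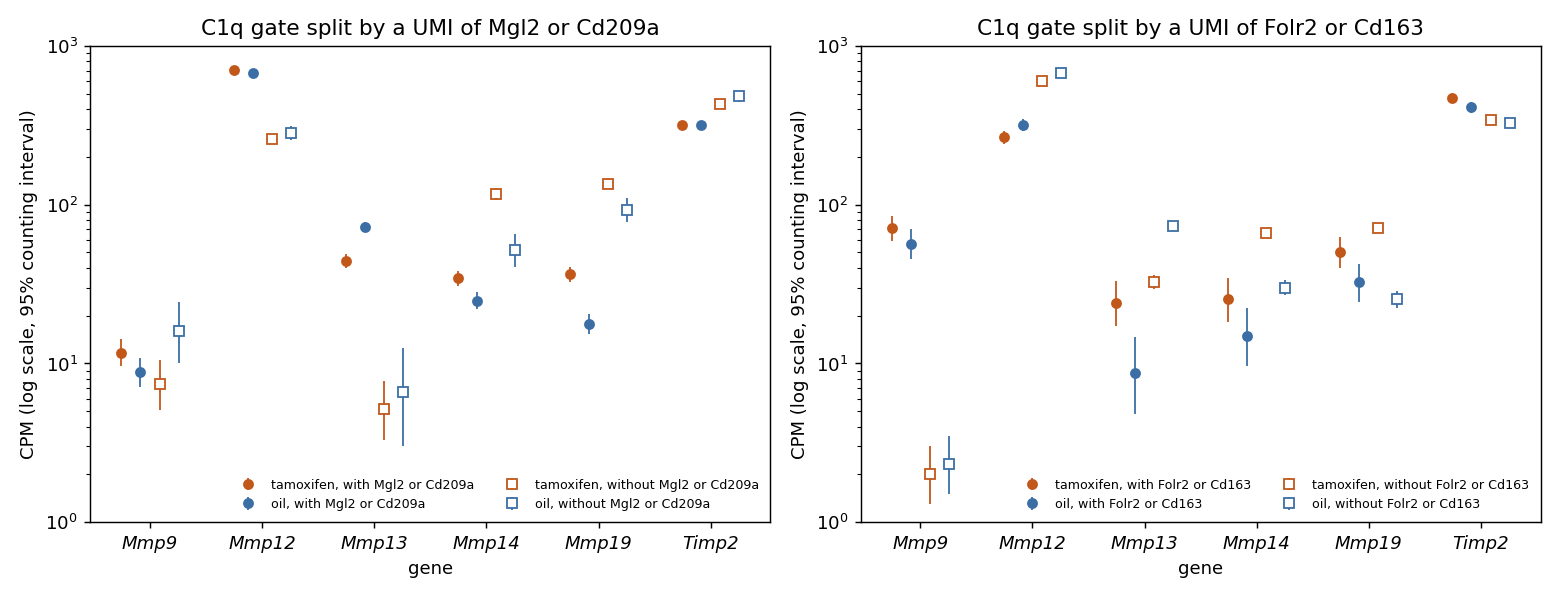
CPM on a log scale, with 95% counting intervals, of 6 genes in C1q gate cells split by a UMI of Mgl2 or Cd209a (left) and of Folr2 or Cd163 (right). Filled circles are cells with such a UMI and open squares cells without, and Mmp9 stands out in the Folr2 or Cd163 cells and Mmp13 in the Mgl2 or Cd209a cells of both libraries.

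The other Mmp13 calls were small counts. In the neutrophil gate it had 12 UMIs in 4 tamoxifen cells and 80 UMIs in 7 oil cells, a log2 ratio of -4.68 (-5.69 to -3.80), and 57 of the 80 lay in 1 oil cell that also passed the C1q and cDC2 gates. No S100-rich cell had a Mmp13 UMI in either library. The cDC1 gate had 2 UMIs in 2 tamoxifen cells and 19 UMIs in 5 oil cells, a log2 ratio of -3.53 (-6.67 to -1.48). Cells of the cDC1 gate alone held 1 of these tamoxifen UMIs and 0 of the oil UMIs.

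Mmp14, the membrane-anchored protease that activates pro-Mmp2 at the cell surface, was called higher in 3 gates, and in the C1q gate it was not called in cells of that gate alone or in male cells. In C1q macrophages it had 827 UMIs in 367 of 1262 tamoxifen cells and 333 UMIs in 199 of 1221 oil cells, at 61.4 and 28.0 CPM, with a log2 ratio of 1.13 (0.95 to 1.32). A UMI was found in 29.1% of tamoxifen and 16.3% of oil cells of this gate, against 1.62% and 1.69% of B cells. The level was higher in C1q cells without Mgl2 or Cd209a, at 116 CPM in tamoxifen and 52.0 CPM in oil cells, with a log2 ratio of 1.16 (0.80 to 1.54). In C1q cells with such a UMI it was 34.4 CPM in tamoxifen and 24.9 CPM in oil cells, a log2 ratio of 0.47 (0.22 to 0.71).

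Mmp14 in the Ly6i Chil1 Gpnmb gate had 602 UMIs in 190 of 524 tamoxifen cells and 65 UMIs in 19 of 137 oil cells, at 78.8 and 32.4 CPM, with a log2 ratio of 1.28 (0.91 to 1.68). In its S100-poor cells outside the alveolar gate Mmp14 was at 138 CPM in 207 tamoxifen and 130 CPM in 33 oil cells, with a log2 ratio of 0.09 (-0.29 to 0.50). The other cells, which also passed the alveolar gate and were not split by S100 UMIs, had 39.9 CPM in 288 tamoxifen and 1.33 CPM in 102 oil cells, from 166 and 2 UMIs. The Ccr7 DC gate had 67 UMIs in 30 tamoxifen and 26 UMIs in 20 oil cells, a called log2 ratio of 1.22 (0.55 to 1.94). Fibroblasts, where Mmp14 was at least 2-fold above other cells in both libraries, had 81.7 CPM in tamoxifen and 47.4 CPM in oil cells, a log2 ratio of 0.79 (0.27 to 1.31).

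Mmp19, a protease that cleaves basement membrane proteins, was mainly an alveolar macrophage transcript. It had 4660 UMIs in 1439 of 2507 tamoxifen cells and 1016 UMIs in 212 of 476 oil cells, at 169.9 and 163 CPM, with a log2 ratio of 0.06 (-0.04 to 0.16). In cells of the alveolar gate alone Mmp19 was at 194 CPM in 1774 tamoxifen and 257 CPM in 197 oil cells. The log2 ratio was 0.18 (0.06 to 0.30) in female and -0.79 (-1.05 to -0.53) in male cells of the gate. Alveolar cells exceeded all other cells by a log2 ratio of 2.55 in tamoxifen and 3.62 in oil, and 8.73% of 13804 genes were at least 2-fold higher there in both. A UMI was found in 57.4% of tamoxifen and 44.5% of oil alveolar cells, against 4.85% and 1.27% of B cells. After thinning to 1500 UMIs the shares were 19.3% and 19.0%.

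Over all usable cells Mmp19 had 77.4 CPM in tamoxifen and 30.8 CPM in oil cells, a log2 ratio of 1.33 (1.25 to 1.41), beside 2507 and 476 cells in the alveolar gate. Cells of no gate had 233 UMIs in tamoxifen and 37 UMIs in oil cells, at 9.29 and 2.07 CPM, with a log2 ratio of 2.17 (1.66 to 2.71), and cells of the T cell gate had 797 UMIs in tamoxifen and 179 UMIs in oil cells, at 28.1 and 10.7 CPM. The part of cell numbers in the ratio over all cells was not tested. In single-cell libraries the number of captured cells of a type follows sorting and capture as well as tissue, and these cannot be told apart here.

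Outside the alveolar gate Mmp19 was called higher in 4 gates. In C1q macrophages it had 932 UMIs in 246 tamoxifen cells and 314 UMIs in 101 oil cells, at 69.2 and 26.4 CPM, with a log2 ratio of 1.39 (1.20 to 1.58). It was higher both in C1q cells with a Mgl2 or Cd209a UMI, by 1.04 (0.77 to 1.30), and, under 2-fold, in those without, by 0.55 (0.27 to 0.83). The cDC2 gate had 38.6 CPM in tamoxifen and 16.4 CPM in oil cells, a log2 ratio of 1.24 (1.06 to 1.42), and cDC2 gate cells outside the C1q gate had 40.4 and 15.2 CPM. Ccr7 DCs had 46 UMIs in 21 tamoxifen and 13 UMIs in 9 oil cells, a log2 ratio of 1.68 (0.77 to 2.69). Endothelial cells had 17 UMIs in 11 tamoxifen and 6 UMIs in 6 oil cells, a log2 ratio of 1.77 (0.36 to 3.40), and this call was kept in 5 of 13 alternatives, with 5 UMIs in tamoxifen and 4 UMIs in oil cells of exactly 1 gate.

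The B cell gate, which is used here for transcripts that may not belong to the cell, showed the same direction for Mmp19. It had 60 UMIs in 21 of 433 tamoxifen cells and 3 UMIs in 3 of 236 oil cells, at 15.1 and 1.15 CPM, a ratio called higher as for 5.73% of 9569 genes of that gate. The T cell gate had 28.1 CPM in tamoxifen and 10.7 CPM in oil cells. Alveolar macrophage markers summed to 600 CPM in tamoxifen and 224 CPM in oil C1q cells, with 0 of 8 markers at 0 in either, and their part in the Mmp19 differences was not tested.

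In the Ly6i Chil1 Gpnmb gate, where Mmp19 exceeded other cells in both libraries, its difference between the libraries stayed under 2-fold. It had 1522 UMIs in 284 tamoxifen cells and 681 UMIs in 98 oil cells, at 199 and 339 CPM, with a log2 ratio of -0.77 (-0.90 to -0.63). Cells of this gate with a Ly6i UMI had 72.8 CPM in 145 tamoxifen cells, and those without one, S100-rich cells left out, had 271 CPM in 350 tamoxifen and 338 CPM in 128 oil cells.

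Timp1, an inhibitor that many tissues raise in injury, had its highest level in the fibroblast gate, but the cDC2 gate held more of its UMIs. Of 260 tamoxifen and 301 oil UMIs in all usable cells, 145 and 202 lay in cDC2 gate cells. The fibroblast gate had 62 UMIs in 24 of 85 tamoxifen cells and 101 UMIs in 30 of 99 oil cells, at 64.9 and 88.6 CPM, with a log2 ratio of -0.45 (-0.93 to 0.02). Fibroblasts exceeded other cells by 4.69 in tamoxifen and 4.53 in oil on the log2 scale, and 13.8% of 13804 genes were at least 2-fold higher there in both. The 2 calls for Timp1 rested on few molecules. In the alveolar macrophage gate it had 33 UMIs in 24 tamoxifen and 16 UMIs in 10 oil cells, a log2 ratio of -1.09 (-1.99 to -0.13). In the Ly6i Chil1 Gpnmb gate it had 33 UMIs in 19 tamoxifen and 27 UMIs in 5 oil cells, a log2 ratio of -1.64 (-2.42 to -0.85), and 23 of the 27 lay in 1 oil cell that also passed the fibroblast gate.

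Timp2, which inhibits MMPs and also takes part in the activation of pro-Mmp2 by Mmp14, was found in most C1q macrophages. C1q macrophages had 4796 UMIs in 1088 of 1262 tamoxifen cells and 4001 UMIs in 1032 of 1221 oil cells, at 356 and 337 CPM, with a log2 ratio of 0.08 (0.02 to 0.14). A UMI was found in 86.2% of tamoxifen and 84.5% of oil cells, against 11.5% and 11.4% of B cells. In fibroblasts it was found in 84 of 85 tamoxifen and 94 of 99 oil cells, at 719.5 and 651 CPM, with a log2 ratio of 0.14 (-0.01 to 0.30). Endothelial cells had 347 CPM in tamoxifen and 302 CPM in oil cells, and Timp2 was at least 2-fold above other cells there in both libraries, as were 13.0% of 13804 genes.

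Timp2 was called in 1 gate, the Ccr7 DC gate. It had 98 UMIs in 34 of 189 tamoxifen cells and 43 UMIs in 22 of 169 oil cells, at 40.0 and 19.4 CPM, a log2 ratio of 1.05 (0.52 to 1.60). The direction turned to -0.81 in cells of this gate alone and to -0.39 after thinning. C1q macrophage markers summed to 912 CPM in tamoxifen and 455 CPM in oil cells of the gate, with no marker at 0 in either, and their part was not tested. In the neutrophil gate Timp2 had 181 CPM in tamoxifen and 350.3 CPM in oil cells, a log2 ratio of -0.95 (-1.16 to -0.73).

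Timp3, the inhibitor that binds the matrix and blocks Adam17, was found mainly in the endothelial and fibroblast gates, which are stromal cells present despite the CD45 sort. Fibroblasts had 1110 UMIs in 80 of 85 tamoxifen cells and 1130 UMIs in 92 of 99 oil cells, at 1163 and 991 CPM, with a log2 ratio of 0.23 (0.11 to 0.35). Endothelial cells had 1113 UMIs in 120 of 257 tamoxifen cells and 1105 UMIs in 136 of 281 oil cells, at 883 and 726 CPM, with a log2 ratio of 0.28 (0.16 to 0.40). In the immune gates it was found in 1.06 to 4.28% of tamoxifen and 1.01 to 4.82% of oil cells. Its few UMIs there were held by few cells, and in C1q macrophages 3 cells held 66.7% of 240 tamoxifen and 50.8% of 195 oil UMIs. Epithelial markers summed to 3248 CPM in tamoxifen and 119 CPM in oil cells of the fibroblast gate, and to 1166 and 172 CPM in the endothelial gate, and no member was called in the fibroblast gate.

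Adam17 was spread over all cell types and was called in no gate. It was found in 32.8% of 10138 tamoxifen and 27.2% of 6794 oil cells, with only 0.609% of the tamoxifen and 1.08% of the oil UMIs in 3 cells. Among the 9 gates the level ran from 36.4 CPM in the cDC1 gate to 131 CPM in the neutrophil gate of the tamoxifen library, and from 30.9 CPM in the endothelial gate to 117 CPM in the Ly6i Chil1 Gpnmb gate of the oil library. The largest difference was in the endothelial gate, with 72 UMIs in 47 tamoxifen and 47 UMIs in 38 oil cells, a log2 ratio of 0.89 (0.34 to 1.45). Alveolar macrophages had 101 CPM in tamoxifen and 72.0 CPM in oil cells, a log2 ratio of 0.49 (0.35 to 0.64), and B cells had 30.9 and 28.7 CPM.

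The members differed in how their molecules were shared among cells. With 10 or more UMIs as the limit, 342 tamoxifen and 310 oil cells held 78.6% and 76.4% of all Mmp12 UMIs. For Timp3, 80 tamoxifen and 79 oil cells held 72.9% and 71.0%. For Timp2 the same limit gave 17.5% and 16.9%, and for Adam17 it gave 0.609% and 0.454%. Mmp8 had 22 tamoxifen cells of this kind with 43.7% of its UMIs and no oil cell, and 19 of the 22 were S100-rich. The 13 tamoxifen cells with 10 or more Mmp9 UMIs included 9 S100-rich cells, while both oil cells of this kind were called as doublets.

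**Figure D5:**
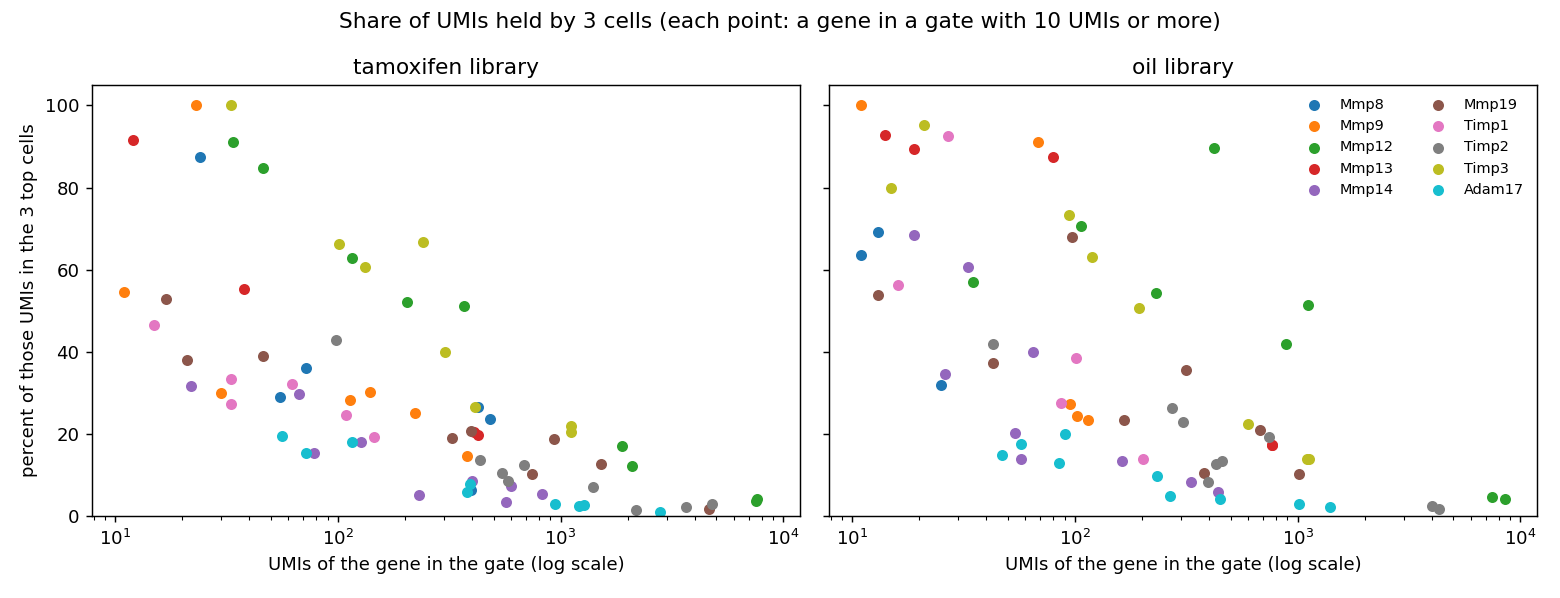
Percent of a gene's UMIs held by its 3 top cells against the number of UMIs (log scale), for each gene and gate with at least 10 UMIs, tamoxifen on the left and oil on the right. Points near the top, such as Mmp9 in the cDC1 gate of the oil library at 91.2%, rest on 3 cells, and the Adam17 points all lie under 25%.

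Other proteases, inhibitors and substrates were counted in the same gates, from lists drawn up with earlier results of these data known. In C1q macrophages 2 of 6 measured elastases and cathepsins were called higher. They were Ctsk, a collagen-degrading lysosomal protease, by 1.95 (1.69 to 2.22) and Ctsd by 1.16 (1.10 to 1.23). The list median was 0.45 beside 0.07 for all genes. Over all 12077 genes of this gate 2.87% were called higher and 1.61% lower. Of 8 substrates, Spp1, the secreted phosphoprotein osteopontin, was higher by 1.83 (1.71 to 1.95) at 209 CPM in tamoxifen and 58.9 CPM in oil C1q cells, while Col3a1 and Col1a1 were called lower. Fibroblast markers, which include both collagens, summed to 73.4 CPM in tamoxifen and 137 CPM in oil C1q cells, with 1 of 8 at 0 in each, and their part was not tested. In the alveolar macrophage gate Spp1 was higher by 1.30 (1.24 to 1.35) and Fn1 by 1.28 (1.21 to 1.35). Cst3, the cathepsin inhibitor cystatin C, was lower there at a log2 ratio of -1.48 (-1.495 to -1.469). It was the 1 of 7 measured other inhibitors called lower, beside 5.29% of 12459 genes. In this gate cDC1 markers summed to 710 CPM in tamoxifen and 1141 CPM in oil cells, and cDC2 markers to 1251 and 1797 CPM. Their part in the Cst3 difference was not tested.

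The leucocyte protease inhibitor Slpi was called higher in several gates. It had 239 UMIs in tamoxifen and 9 UMIs in oil cells of the cDC1 gate, and 592 and 191 UMIs in the cDC2 gate, with log2 ratios of 4.45 (3.50 to 5.60) and 1.91 (1.67 to 2.15). Stfa2l1, a stefin of mouse neutrophils, had 513 UMIs in tamoxifen and 42 UMIs in oil cells of the neutrophil gate, a log2 ratio of 1.67 (1.21 to 2.16). Serpinb2, an inhibitor of plasminogen activators, ran the other way there, with 20 UMIs in tamoxifen and 138 UMIs in oil cells. In the cDC2 gate it had 0 UMIs in tamoxifen and 122 UMIs in oil cells.

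Among the other Mmp genes few were measurable. Of the 14 listed, 9 had at least 20 UMIs over all usable cells, and 2 of the 9 were called lower and 0 higher. Over all 15373 genes 3.89% were called lower and 4.31% higher. The list median was -0.72 beside 0.07 for all genes. Mmp3, stromelysin-1, was called higher in the Ly6i Chil1 Gpnmb gate, with 50 UMIs in tamoxifen and 1 UMI in oil cells, and lower in the cDC1 gate, with 11 and 28 UMIs. In that Ly6i Chil1 Gpnmb gate 5 of 7 measured substrates were called lower, beside 2.46% of 10668 genes. They were led by Eln, Col3a1 and Col1a1, whose log2 ratios were -4.23, -4.14 and -4.04. Fibroblast markers, which include Col1a1 and Col3a1, summed to 91 CPM in tamoxifen and 309 CPM in oil cells. Of the cells of this gate, 5 in tamoxifen and 1 in oil also passed the fibroblast gate, and their part was not tested. Of 10 Adam17 substrates 3 were called higher and 1 lower in the Ly6i Chil1 Gpnmb gate, beside 4.56% and 2.46% of 10668 genes. Hbegf, a ligand of the epidermal growth factor receptor, was the lower one, with 65 UMIs in tamoxifen and 39 UMIs in oil cells and a log2 ratio of -1.19. Among the higher was Areg, the ligand amphiregulin of the same receptor, at 733 UMIs in tamoxifen and 25 UMIs in oil cells. Neutrophil markers summed to 14527 CPM in tamoxifen and 3114 CPM in oil cells of this gate, with 0 of 8 markers at 0 in either library, and their part was not tested.

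In fibroblasts 0 of the 8 measured matrix substrates of these enzymes, which include the gate gene Col1a2, were called. Over all 8771 genes of this gate 2.76% were called higher and 2.47% lower, so a count of 0 is near that share. The list median was 0.01 beside 0.01 for all genes. Col1a1 had 526 CPM in tamoxifen and 517 CPM in oil cells, a log2 ratio of 0.03 (-0.15 to 0.20), and Eln had 541 and 481 CPM, a log2 ratio of 0.17 (-0.005 to 0.35). Of the 12 sheddases measured, 0 were called, which is also near the share over all genes. Areg was the 1 of 8 measured Adam17 substrates called higher, with 37 UMIs in tamoxifen and 7 UMIs in oil cells.

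Genes with the most similar distribution over the 9 gates of both libraries (18 points that share libraries and cells, log2(CPM + 1), 9888 genes compared) were listed as a description. Mmp13 was most like Clec4b1, a C-type lectin gene, at r = 0.93. Mmp19 was most like Ctsk at 0.96, Timp3 most like Nfib at 0.99, Timp2 most like Ecm1 at 0.96, and Timp1 most like Mfap5 at 0.91. Mmp9 was most like Hdc, the histidine decarboxylase of neutrophils and mast cells, at 0.88. Within the members, Mmp19 and Adam17 had r = 0.82, Timp1 and Timp2 0.71, and Mmp12 and Mmp13 0.68.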

How the data were processed

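The authors deposited whole-number UMI counts for each gene in each barcode, made with Cell Ranger 5.0.1 on GRCm38 (mm10), per the submitters' processing notes; filters applied before deposit are not given in the sources used here, and the lowest barcode held 500 UMIs. Cells needed at least 300 genes and under 10% mitochondrial UMIs. Gates needed summed UMIs of at least 2 (alveolar, cDC1, neutrophil, endothelial, B and T cells), 5 (C1q), 3 (Ly6i Chil1 Gpnmb, fibroblast) or 1 (cDC2), or 1 of each gene (Ccr7 DC). Counts were summed per gate and divided by the gate total (CPM). Log2 ratios of tamoxifen over oil have exact conditional-binomial 95% intervals, and shares have Clopper-Pearson intervals. The intervals and the floor of 3 UMIs cover counting error only. A pair was called from 20 UMIs, at 2-fold, with the interval excluding no difference. All 10 members were named; list genes were named by the largest called ratios, up to 3 each way per gate, and similar genes by Pearson r, 3 per member. Doublets were called with Scrublet through Scanpy 1.11.5. In the tamoxifen library 416 cells were called automatically. In the oil library the automatic limit marked 4, so the 369 highest scores, a number set from the count of cells, were used instead. Doublets stay in the main values. The interval code was checked on simulated counts. Python 3.11.15, NumPy 2.4.6 and SciPy 1.17.1 were used. Members, lists and gates were chosen with earlier results of these data known. The splits by S100 genes, Mgl2 or Cd209a, and Folr2 or Cd163 were chosen after seeing the values. Gene positions are from GENCODE vM21, and promoters from RefSeq.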

Additional observations from a re-analysis of the deposited data

Results flagged for a closer look

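Mmp9 and Mmp12 were called in opposite directions in different gates. The difference between gates was not tested, and gates share cells. Mmp9 had a log2 ratio of 2.41 in the Ly6i Chil1 Gpnmb gate and one of at least 3.21 in the endothelial gate, where the oil library had 0 UMIs and 3 were assumed, against -2.91 in the cDC1 gate. Mmp12 had a log2 ratio of 3.91 in the Ccr7 DC gate, against -1.18 in the Ly6i Chil1 Gpnmb gate and -2.12 in the neutrophil gate. Outside the filter on genes and mitochondrial UMIs, Mmp19 had 256 UMIs in 2842 tamoxifen barcodes and 95 UMIs in 3548 oil barcodes, at 66.0 and 20.8 CPM, a log2 ratio of 1.66 (1.32 to 2.02) in barcodes that enter no other comparison.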

How the results depend on the processing

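There were 14 alternatives, of which 2 were chosen after seeing the data (leaving out cells that pass the T or B cell gate, and leaving out S100-rich cells). The count of pairs called higher was 17, and it was 11 in cells of exactly 1 gate, 9 after thinning to 1500 UMIs and 10 in male cells. Of the 17, those also called in these cells were 7 in exactly 1 gate, 8 after thinning and 0 in male cells, where 9 of the 17 had a value. The count called lower was 8, and it was 5 in cells of exactly 1 gate, 3 without the 3 top cells of each gene and 3 after thinning, of which 2, 2 and 1 were among the 8. The remaining settings moved neither count as far. In cells of exactly 1 gate the direction turned for Mmp13 in the C1q gate (0.15), Mmp9 in the Ly6i Chil1 Gpnmb gate (-3.03) and Timp2 in the Ccr7 DC gate (-0.81). Thinning turned Timp2 in the Ccr7 DC gate (-0.39) and Timp1 in the Ly6i Chil1 Gpnmb gate (0.046), and Timp1 in that gate also turned without the 3 top cells (1.50) and in female cells (2.36). Mmp12 in the Ly6i Chil1 Gpnmb gate turned in male cells (7.87), and Mmp9 in the cDC1 gate without doublet calls (0.41). Thinning and subsets leave fewer UMIs, and the cause of the other changes was not tested. No paired analysis was possible because each group has 1 library. Depth limits the Mmp8 ratio in the Ccr7 DC gate and the Mmp9 ratio in the endothelial gate to bounds, since oil had 0 UMIs there, and with 1 library per group animal-to-animal spread is unknown.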
